A study of Mus musculus with 2 samples.

Results

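Type 1 conventional dendritic cells (cDC1) of neonatal mouse skin were described by library in single-cell RNA sequencing of sorted CD45+ cells. The anti-Gr-1 library held 334 such cells among 8047 kept barcodes, and the isotype control library held 287 among 19542, which makes 621 of 27589 in all. Both pools were wild-type C57BL/6 mice taken on postnatal day 15, after injections every other day between day 4 and day 14. The first pool had received anti-Gr-1, an antibody against the Ly6G and Ly6C proteins that neutrophils and monocytes carry, and the other pool an isotype control antibody. Cells of 4 to 7 mice were pooled per condition, digested from the skin with collagenase and sorted as live CD45+ cells, and each pool gave 1 library. With 1 library per condition no difference between the conditions could be tested. All intervals below are 95% exact intervals that cover counting error only. PCR, variation between cells and sampling of mice add error that they do not hold. Intervals of gene and list ratios treat UMIs as independent, so they are too narrow where UMIs cluster in few cells.

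cDC1 are the dendritic cells that take up material from dying cells and present it on MHC class I to CD8+ T cells, which is called cross-presentation. Their development depends on the transcription factors Irf8 and Batf3 and on the growth factor Flt3 ligand. In the skin of mice they are dermal cells, many of which carry langerin (Cd207) and the integrin CD103 (Itgae), and they carry Xcr1, the receptor for the chemokine XCL1 made by T cells and NK cells.

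The cells were chosen by their own measured values. A barcode needed at least 200 genes and under 10% mitochondrial UMIs (unique molecular identifiers, which count molecules). At least 1% of its UMIs had to come from the MHC class II genes Cd74, H2-Aa, H2-Ab1 and H2-Eb1, and Xcr1 and Clec9a together had to reach 2 UMIs. Complement C1q genes had to stay under 0.3% of UMIs, Ccr7 under 2 UMIs and Mki67 with Top2a under 3 UMIs, and Cd3d, Cd3e and Cd3g had to be at 0. The levels of these genes are therefore no result. Xcr1 (chr9:123852315-123862029, minus strand of mm10) had 2076 UMIs in anti-Gr-1 and 1523 UMIs in isotype control cDC1. Clec9a, a receptor for the actin that dead cells expose (chr6:129408862-129424763, plus strand), had 940 UMIs in anti-Gr-1 and 583 UMIs in isotype control cDC1. Both receptors were found in 300 anti-Gr-1 and 221 isotype control cells. Xcr1 alone was found in 26 anti-Gr-1 and 60 isotype control cells, and Clec9a alone in 8 anti-Gr-1 and 6 isotype control cells.

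The edges of the rule differed in how clean they were. Cells with exactly 2 UMIs of the receptor pair, 22 in the anti-Gr-1 and 36 in the isotype control library, had 1449 and 1510 CPM (UMI counts scaled to a common library total) of Irf8. Their Cd209a, a cDC2 gene, stood at 45.4 CPM in anti-Gr-1 and 259 CPM in isotype control, against 23.8 and 39.4 CPM over all members, and their Cadm1 at 208 and 128 CPM, against 251 and 268 CPM. Cells with 1 UMI were left out and numbered 29 and 72, with 226 and 588 CPM of Irf8. Cells without any, 849 and 2453, had 27.0 and 40.6 CPM. The condition that Cd3 genes be at 0 left out 162 anti-Gr-1 and 261 isotype control cells that met all the others. Of these, 94 and 117 had a single Cd3 UMI, with Irf8 at 1707 and 1667 CPM. A further 41 and 103 had 3 or more Cd3 UMIs and carried Trdc, a γδ T cell receptor gene, at 552 and 442 CPM. The limit on Mki67 and Top2a left out 44 and 27 cells with proliferation transcripts, the limit on Ccr7 left out 3 and 4 cells, and the C1q limit left out 1 and 5 cells.

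The libraries differed in depth. The anti-Gr-1 library held 9110 barcodes and 85142470 UMIs, and the isotype control library 21311 barcodes and 125253392 UMIs. Median depth was 16785 UMIs per cell in anti-Gr-1 and 12182 UMIs per cell in isotype control cDC1, with 3220.5 and 2887 genes per cell. Summed over cDC1 the depth was 5662135 UMIs in anti-Gr-1 and 3425506 UMIs in isotype control. The pools also differed in sex: by Xist and Y-linked UMIs, 67 anti-Gr-1 and 100 isotype control cDC1 were female, and 204 and 121 were male. The 2 libraries shared 61 barcode sequences, none of them cDC1 in both. Removing the barcodes with the highest doublet scores would have taken out 9 anti-Gr-1 and 21 isotype control cDC1. They were kept, and values without them are an alternative below.

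The name of the population was checked against markers that the rule did not use. Irf8 (chr8:120736358-120756694, plus strand) was found in 333 of 334 anti-Gr-1 and 280 of 287 isotype control cells, at 1643 and 1820 CPM. Irf8 stood at 13.3 and 25.2 CPM in type 2 dendritic cells (cDC2) of the same libraries and at 12.8 and 22.1 CPM in T cells. Batf3 (chr1:191097847-191108945, plus strand) stood at 141 CPM in anti-Gr-1 and 131 CPM in isotype control cDC1, against 84.1 and 77.3 CPM in cDC2. In mature dendritic cells with Ccr7 it stood at 166 and 117 CPM, so Batf3 did not set cDC1 apart from those. Cadm1, an adhesion molecule of cDC1, had 251 and 268 CPM, against 21.3 and 20.4 CPM in cDC2. Wdfy4, needed for cross-presentation, had 466 CPM in anti-Gr-1 and 514 CPM in isotype control cDC1, against 43.8 and 46.5 CPM in cDC2. Naaa, a lipid amidase, had 1448 and 1633 CPM, against 559 and 521 CPM in cDC2. Tlr3, the sensor of double-stranded RNA, had 48.7 and 52.0 CPM, against 0.489 and 2.25 CPM in cDC2. Cd8a, which marks cDC1 of lymphoid organs, had 1 UMI in anti-Gr-1 and 4 UMIs in isotype control cells.

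**Figure D1:**
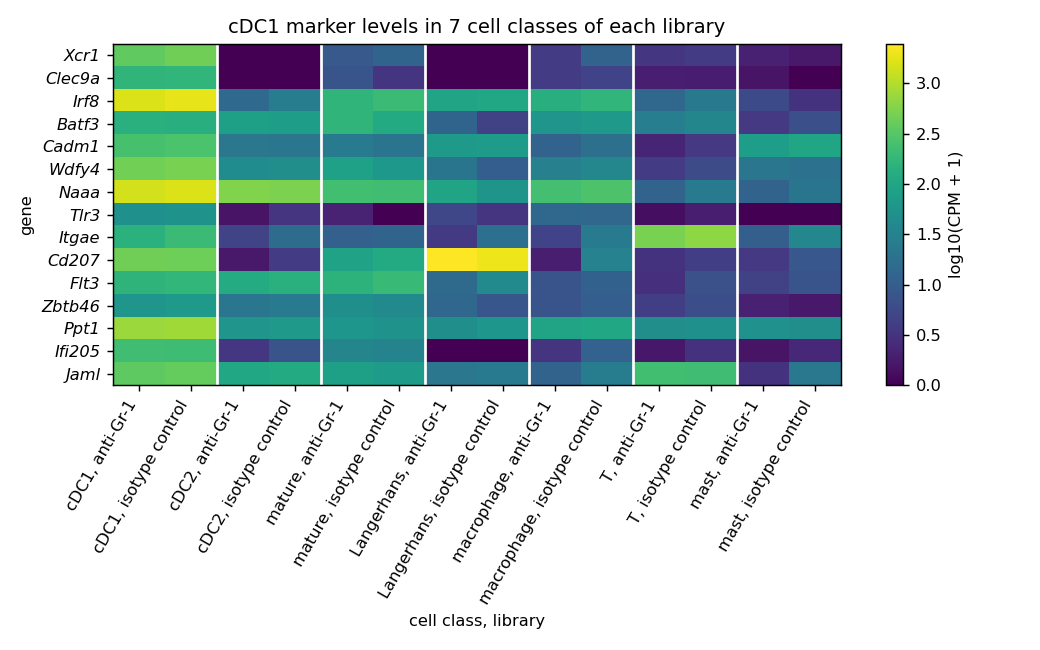
Levels of 15 cDC1 marker genes (rows) in 7 cell classes of the anti-Gr-1 and the isotype control library (columns), coloured by log10(CPM + 1). The 2 left columns are cDC1. Irf8 stands at 1643 CPM in anti-Gr-1 and 1820 CPM in isotype control cDC1 and at 13.3 and 25.2 CPM in cDC2, whereas Cd207 is higher in Langerhans cells than in cDC1. Xcr1 and Clec9a are at 0 in cDC2 and Langerhans cells because the rules for those classes required it. Cd207 was also part of both rules, at 2 or more UMIs for Langerhans cells and, with Epcam, under 2 UMIs for cDC2.

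cDC1 made up 4.15% of kept barcodes (3.73 to 4.61%) in the anti-Gr-1 library and 1.47% (1.30 to 1.65%) in the isotype control library. The ratio of the shares was 2.83 (2.41 to 3.32). cDC2 made up 8.85% in the anti-Gr-1 and 8.60% in the isotype control library, and Langerhans cells 0.721% and 0.522%. Mature dendritic cells with Ccr7 made up 1.37% in the anti-Gr-1 and 0.819% in the isotype control library, and T cells 51.4% and 39.1%. The mast cell share was also higher in the anti-Gr-1 library, whereas macrophages made up 2.72% there and 2.74% in the isotype control library. A higher share was therefore not peculiar to cDC1. Among female cells the cDC1 share was 4.44% in the anti-Gr-1 and 1.51% in the isotype control library, and among male cells it was 4.44% and 2.04%. Without barcodes that carried neutrophil or monocyte transcripts the ratio was 2.76, and of barcodes with at least 1% MHC class II UMIs cDC1 were 13.1% in the anti-Gr-1 and 3.23% in the isotype control library. The share was above that of the isotype control library in each of the 14 alternative countings. Its size moved with depth: when every barcode was thinned to 2000 UMIs and the rule was applied again, 126 of 7704 anti-Gr-1 barcodes (1.64%) and 146 of 14504 isotype control barcodes (1.01%) qualified, a ratio of 1.62 (1.27 to 2.08). These are shares of a sort, so more cDC1 and fewer other cells cannot be told apart.

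**Figure D2:**
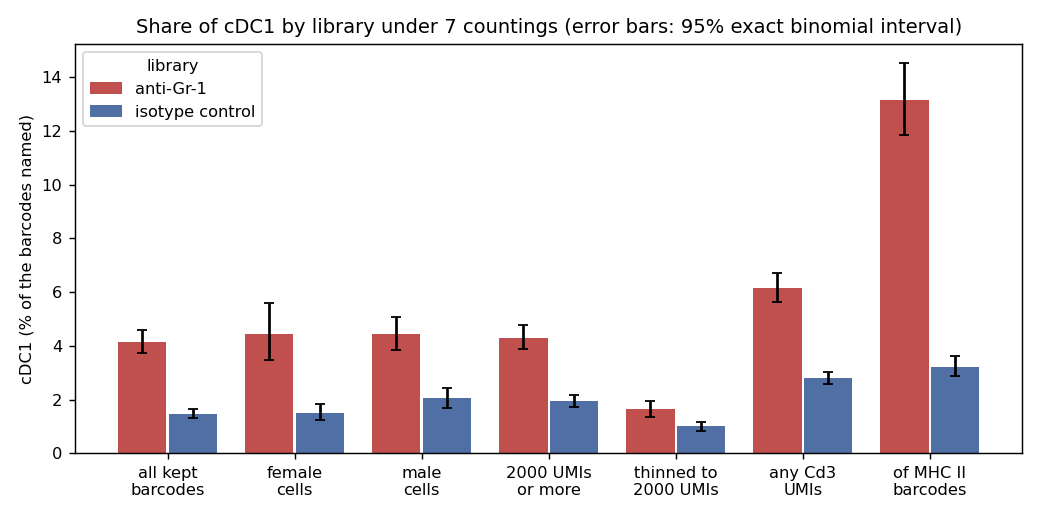
Share of cDC1 (y axis, percent of the barcodes named on the x axis) in the anti-Gr-1 and the isotype control library under 7 countings. Error bars are 95% exact binomial intervals. The anti-Gr-1 bar is the higher of each pair, at 4.15% and 1.47% over all kept barcodes and at 1.64% and 1.01% after thinning to 2000 UMIs.

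Across genes, cDC1 of the libraries were alike at the 1.5-fold level for most of what was measured. UMIs were summed over the cDC1 of each library, and a gene counted as past the fold where log2 of the ratio of (CPM + 5) passed 1.5-fold. Of 8103 genes with at least 50 UMIs, 24 (0.296%) were higher and 265 (3.27%) lower in anti-Gr-1 cDC1. The median log2 ratio was -0.11, so ratios are read against that shift. After centring on the median gene 48 were higher and 156 lower. Over 9748 genes with at least 20 UMIs, the floor used for gene lists, 0.4% were higher and 3.65% lower, with a median of -0.11. Of the 265 lower genes, 247 (93.2%) stood higher in T cells, mast cells, macrophages or cDC2 than in cDC1 of both libraries, as did 81.9% of all genes tested. In 54 of the 265, over 50% of the isotype control UMIs lay in 5 cells, and 26 of the 265 stood above the level taken as free RNA in both libraries. Neither trait was counted over all genes tested, so these counts do not set the lower genes apart. Genes with at least 50 CPM in a library numbered 2520, of which 2 were past 1.5-fold higher and 41 lower.

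Transcripts of other cells moved with these counts. The mast cell genes Cpa3, Mcpt4, Cma1, Tpsb2, Tpsab1 and Ms4a2 summed to 107 CPM in anti-Gr-1 and 607 CPM in isotype control cDC1. Kit, the seventh gene of that list, is also a growth receptor of cDC1 and was left out of this sum. A UMI of the 6 genes was found in 148 anti-Gr-1 and 129 isotype control cells, so the median cell held none in either library, and 1 anti-Gr-1 and 5 isotype control cells held 10 or more UMIs of Cpa3, Mcpt4 and Cma1. The 5 lowest ratios named by the rule were all mast cell genes: Cpa3 (-3.01 on the log2 scale), Hdc (-2.49), Cma1 (-2.47), Mcpt4 (-1.88) and Tpsb2 (-1.75). Without the barcodes of highest doublet scores these ratios were smaller, at -0.85, -0.59, -0.45, -0.61 and -0.38 in the same order. S100a8, a neutrophil gene, had the highest ratio among genes with at least 50 CPM in a library, with 607 UMIs in anti-Gr-1 cDC1 of which 603 lay in 1 cell, and 113 UMIs in isotype control cDC1 of which 103 lay in 1 cell. Ly6g was at 0 in both. T cell genes other than Cd3 summed to 25.8 CPM in anti-Gr-1 and 70.6 CPM in isotype control, monocyte genes to 292 and 405 CPM, and cDC2 genes to 376 and 500 CPM. Of the defining markers of B cells, Cd79a and Ms4a1 were at 0, although Ighm had 671 UMIs in anti-Gr-1 and 418 UMIs in isotype control. AY036118, an RNA that maps to ribosomal repeats, stood at 968 CPM in anti-Gr-1 and 427 CPM in isotype control cDC1. It stood at 768 and 393 CPM in cDC2. Without the cells that held mast or neutrophil RNA, 23 genes were higher and 243 lower.

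The identity list held 28 genes, of which Xcr1 and Clec9a were used to choose the cells. Without this pair, 25 genes reached 20 UMIs and none was past 1.5-fold in either direction, with a median log2 ratio of -0.12 against -0.11 over all genes. Each cell's summed level of these genes had a median of 8423 CPM in anti-Gr-1 (quartiles 7221 and 9796) and 9224 CPM in isotype control (quartiles 7908 and 10870). The cells were chosen as cDC1, so these values are a description. The widest gap in the list was that of Itgae, the CD103 integrin chain that binds E-cadherin, at 147 CPM in anti-Gr-1 and 204 CPM in isotype control cDC1, a ratio of 0.722 (0.652 to 0.799). T cells of both libraries hold more Itgae than cDC1, and its share in the free RNA of cDC1 droplets was not tested. Cd207 had 446 CPM in anti-Gr-1 and 432 CPM in isotype control cDC1. Flt3, the growth factor receptor, had 158 and 174 CPM, and Zbtb46, a transcription factor of conventional dendritic cells, had 57.6 and 64.2 CPM. Ppt1, a lysosomal thioesterase, had 750 CPM in anti-Gr-1 and 807 CPM in isotype control.

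Among 23 transcription factors the median was -0.15, with none past 1.5-fold higher and 3 lower, against 3.65% lower over all genes. Id2, which cDC1 need, had 582 CPM in anti-Gr-1 and 623 CPM in isotype control cDC1. Spi1, which encodes PU.1, had 313 and 299 CPM, and Cbfa2t3, a co-repressor, had 303 and 364 CPM. The 3 lower genes were Zeb2 and Irf4, both factors of cDC2 and other myeloid cells, and Irf1. Zeb2 had 28.3 CPM in anti-Gr-1 and 53.1 CPM in isotype control, with 69.4% and 41.8% of its UMIs in 5 cells. Irf4 had 13 and 27 UMIs. Klf4 had 632 CPM in anti-Gr-1 and 804 CPM in isotype control.

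Antigen uptake and presentation genes differed little. The MHC class II path held 14 genes, of which Cd74, H2-Aa, H2-Ab1 and H2-Eb1 were used to choose the cells. The other 10 had a median of -0.02, and of them Lgmn, a lysosomal protease, was past the fold, at 11.1 CPM in anti-Gr-1 and 21.9 CPM in isotype control. H2-DMa, which loads peptide, had 1263 and 1159 CPM, and Ciita, the regulator of class II genes, had 205 CPM in anti-Gr-1 and 248 CPM in isotype control. In the MHC class I path, 20 genes had a median of -0.07 and none was past the fold. Psmb8 and H2-T23 of that path were among the 10 highest ratios of all named genes. The immunoproteasome subunit Psmb8 had 478 CPM in anti-Gr-1 and 365 CPM in isotype control cDC1, a ratio of 1.31 (1.22 to 1.40). The non-classical class I gene H2-T23, which encodes Qa-1, had 179 CPM in anti-Gr-1 and 132 CPM in isotype control cDC1, a ratio of 1.35 (1.21 to 1.52). Psmb9 had 345 and 295 CPM, whereas H2-K1 had 334 and 411 CPM and Tapbp, the peptide-loading factor tapasin, had 169 and 219 CPM. In cDC2 the log2 ratios of Psmb8 and H2-T23 were 0.06 and 0.04. Whether cDC1 and cDC2 differ in this was not tested.

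Of 26 measured genes of uptake and cross-presentation, none was past 1.5-fold higher and 3 were lower, with a median of -0.15. Over all genes 3.65% were lower. Among cells with 3 or more UMIs of Xcr1 and Clec9a, 1 of 26 was lower. Rab43, a small GTPase used in cross-presentation, had 435 CPM in anti-Gr-1 and 462 CPM in isotype control cDC1, and Rab7b had 590 and 665 CPM. Cyba, a subunit of the phagocyte oxidase, had 518 and 514 CPM, and Hmgb1, a chromatin protein and alarmin, had 250 CPM in anti-Gr-1 and 247 CPM in isotype control. The 3 lower genes were Cybb, the catalytic oxidase subunit, Mrc1 and Cd209a, with 37, 116 and 135 UMIs in anti-Gr-1 and 116, 134 and 135 UMIs in isotype control. Between 72.4% and 83.8% of the anti-Gr-1 UMIs of these 3 genes lay in 5 cells, and Mrc1 and Cd209a are markers of macrophages and cDC2.

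Pattern recognition receptors set cDC1 apart from other dendritic cells by Tlr3, Tlr11 and Tlr12, of which the last 2 bind profilin of protozoan parasites. Of 18 measured receptors and adaptors none was past 1.5-fold, with a median of -0.26. Tlr11 had 63.6 CPM in anti-Gr-1 and 77.7 CPM in isotype control cDC1, and Tlr12 had 43.3 and 54.6 CPM. Unc93b1, which carries endosomal Toll-like receptors, had 152 and 169 CPM, and Cd14 had 73.8 and 92.8 CPM. Tlr5 had 0 UMIs in both libraries, which allows a level of up to 0.530 CPM in anti-Gr-1 and 0.876 CPM in isotype control.

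Interleukin-12, the cytokine by which cDC1 drive type 1 responses, was barely measured: Il12b had 2 UMIs in anti-Gr-1 and 1 UMI in isotype control, and Il12a had none. A count of 0 allows up to 0.898% of anti-Gr-1 and 1.05% of isotype control cDC1 to carry a UMI. Il1b, the gene of interleukin-1β, stood at 413 CPM in anti-Gr-1 and 400 CPM in isotype control cDC1 and was found in 186 and 170 cells. Thinned to 2000 UMIs, 28.9% of anti-Gr-1 and 32.2% of isotype control cDC1 carried an Il1b UMI, against 4.19% and 10.2% of T cells, which should lack it. Il18 had 44.7 and 41.5 CPM, Ebi3, a subunit of interleukins 27 and 35, had 47.7 and 46.7 CPM, and Tgfb1 had 144 CPM in anti-Gr-1 and 162 CPM in isotype control. Of 10 measured cytokines 3 were past 1.5-fold lower and none higher, with a median of -0.09, against 3.65% lower over all genes. Tnf had 31.4 CPM in anti-Gr-1 and 61.3 CPM in isotype control, with 41.6% and 45.2% of its UMIs in 5 cells, and Osm and Ltb had under 30 UMIs in each library.

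Of 21 measured chemokine and receptor genes, 1 was past 1.5-fold higher and 8 were lower, with a median of -0.29, against 0.4% higher and 3.65% lower over all genes. The median was 0.28 over 15 genes among female cells and -0.32 over 18 genes among male cells. Among cells with 3 or more UMIs of Xcr1 and Clec9a, 1 of 21 was lower. Cxcl16, a transmembrane chemokine, had 295 CPM in anti-Gr-1 and 341 CPM in isotype control cDC1. Ccl4 had 309 and 290 CPM, with 27.7% and 52.2% of its UMIs in 5 cells. Ccr2, a receptor that dermal dendritic cells and monocytes share, had 230 CPM in anti-Gr-1 and 282 CPM in isotype control. Cxcr3 had 60.7 and 63.6 CPM, and Cxcr4 had 85.7 and 99.0 CPM. Ccl17 was the higher gene, with 66 UMIs in 5 anti-Gr-1 cells, 35 of them in 1 cell, and 2 UMIs in isotype control. The 8 lower genes were Ccr1, Cx3cr1, Cxcl10, Cxcl2, Ccl2, Ccl5, Ccl9 and Ccl22. Cxcl10 had 19 UMIs in 11 anti-Gr-1 cells and 102 UMIs in 34 isotype control cells. Cxcl2 had 71.2 CPM in anti-Gr-1 and 110 CPM in isotype control, with 93.1% and 72.2% of UMIs in 5 cells.

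Transcripts of ligands of the main cDC1 receptors stood higher in T cells than in cDC1. Cells without CD45 were not sorted, so their part was not measured. Xcl1, the ligand of Xcr1, stood at 699 CPM in anti-Gr-1 T cells and 688 CPM in isotype control T cells, against 4.06 and 7.30 CPM in cDC1. Flt3l stood at 42.2 and 44.2 CPM in T cells and at 6.18 and 7.88 CPM in cDC1. Csf2, which encodes GM-CSF, stood at 16.6 CPM in anti-Gr-1 and 19.0 CPM in isotype control T cells and had 0 and 2 UMIs in cDC1.

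Of 19 measured co-stimulatory and inhibitory genes none was past 1.5-fold higher and 5 were lower, with a median of -0.22. Over all genes 3.65% were lower. Among cells with 3 or more UMIs of Xcr1 and Clec9a, 2 of 19 were lower. Cd86, the B7-2 ligand of CD28, had 150 CPM in anti-Gr-1 and 147 CPM in isotype control cDC1. Cd83 had 526 and 617 CPM, Slamf7 had 301 and 314 CPM, and Havcr2, which encodes the inhibitory receptor TIM-3, had 209 CPM in anti-Gr-1 and 228 CPM in isotype control. The 5 lower genes were Icosl, Tnfsf9, Cd274, Cd200r1 and Sirpa. Icosl, the ligand of ICOS on T cells, had 95 UMIs in 70 anti-Gr-1 cells (16.8 CPM) and 121 UMIs in 89 isotype control cells (35.3 CPM), a ratio of 0.475 (0.359 to 0.627). Its log2 ratio was -0.92 among female and -0.91 among male cells. Tnfsf9, the ligand of 4-1BB, had 42.6 CPM in anti-Gr-1 and 78.5 CPM in isotype control. Cd274, which encodes PD-L1, had 14 and 28 UMIs.

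Genes of maturation had a median of -0.28 over 17 measured, with none past 1.5-fold higher and 5 lower (Ccl22, Socs2, Ccl5, Samsn1 and Cd63). Over all genes 3.65% were lower. With 3 or more UMIs of Xcr1 and Clec9a, 2 of 17 maturation genes were lower. Without the barcodes of highest doublet scores it was 2 of 15. Marcks had 687 CPM in anti-Gr-1 and 862 CPM in isotype control cDC1, and Traf1 had 98.4 and 125 CPM. Fscn1, the actin bundler of migratory dendritic cells, had 10 UMIs in anti-Gr-1 and 5 UMIs in isotype control. Proliferation genes, which the rule limited through Mki67 and Top2a, had a median of 0.04 over 25 measured and none past the fold. The replication helicase genes Mcm3, Mcm4 and Mcm5 had 44.2, 14.5 and 13.4 CPM in anti-Gr-1 and 33.3, 9.05 and 7.59 CPM in isotype control. Growth and survival genes had a median of -0.28 over 25 measured, with none higher and 3 lower (Il2rg, Bcl2a1b and Tgfbr1). The share lower over all genes was the same 3.65%. Csf2ra, the GM-CSF receptor chain, had 213 CPM in anti-Gr-1 and 280 CPM in isotype control, Csf2rb had 111 and 145 CPM, and Kit had 113 and 123 CPM. Mcl1, an anti-apoptotic protein, had 510 CPM in anti-Gr-1 and 591 CPM in isotype control. Il2rg, the common γ chain, had 6.53 and 23.9 CPM.

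The list of brakes on interleukin-1 and NF-κB signalling had a median log2 ratio of -0.44 over 15 measured genes, of which none was past 1.5-fold higher and 6 were lower, against 3.65% lower over all genes. Of the 15 genes, 2 stood above the level taken as free RNA in both libraries, of which 1 was lower. Summed over the list, anti-Gr-1 cDC1 held 727 CPM and isotype control cDC1 1134 CPM, a ratio of 0.640 (0.613 to 0.669). Among cells with 3 or more UMIs of Xcr1 and Clec9a, 1 of 14 measured genes was lower (Tnfaip3) and the median was -0.31, so the count of 6 depended on cells at the edge of the rule. Per cell, the median cell held 416 CPM in anti-Gr-1 and 654 CPM in isotype control, and the upper quartile was 788 and 1484 CPM. Nfkbia and Tnfaip3 make up most of this sum, and without the pair the median cell held 248 CPM in anti-Gr-1 and 309 CPM in isotype control. The 5 highest cells held 12.5% of the list's UMIs in the anti-Gr-1 and 11.3% in the isotype control library. Nfkbia, which encodes the inhibitor IκBα, had 326 CPM in anti-Gr-1 and 533 CPM in isotype control cDC1, a ratio of 0.611 (0.572 to 0.652). Tnfaip3, which encodes the ubiquitin-editing enzyme A20, had 107 CPM in anti-Gr-1 and 187 CPM in isotype control cDC1, a ratio of 0.572 (0.511 to 0.640). Zc3h12a, an RNase of cytokine transcripts, had 20.5 and 36.2 CPM, and Socs3, an inhibitor of cytokine receptor signalling, had 22.3 and 51.7 CPM. Tnip3, an A20-binding protein, had 17.5 CPM in anti-Gr-1 and 43.5 CPM in isotype control, with 66.7% and 51.0% of its UMIs in 5 cells. Il1rn, the interleukin-1 receptor antagonist, had 23 UMIs in 6 anti-Gr-1 cells and 68 UMIs in 25 isotype control cells. The remaining members lay closer: Cyld, a deubiquitinase, had 49.4 CPM in anti-Gr-1 and 55.5 CPM in isotype control, and Otulin had 69.2 and 67.4 CPM.

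The same list had a median of -0.09 in cDC2 of the same libraries, where Nfkbia stood at 1358 CPM in anti-Gr-1 and 1446 CPM in isotype control and Tnfaip3 at 611 and 641 CPM. Whether the 2 cell types differ was not tested. Each of the 6 lower genes stands higher in another class than in cDC1, and T cells carry Nfkbia and Tnfaip3 in 61.9% and 65.4% of anti-Gr-1 cells thinned to 2000 UMIs. At that depth 28.9% of anti-Gr-1 and 39.9% of isotype control cDC1 carried an Nfkbia UMI, and 14.5% and 24.4% a Tnfaip3 UMI. Without members that held any UMI of Cd209a, Mgl2 or C1q the list's median was -0.44, and it was -0.42 among female and -0.29 among male cells. These genes also respond to tissue digestion, and its part was not tested. In the list of immediate early and heat shock genes, which marks that handling, 3 of 24 were lower (Egr1, Egr2 and Hsph1). None was higher and the median was -0.26, and over all genes 3.65% were lower. Egr1 had 392 CPM in anti-Gr-1 and 612 CPM in isotype control, Hsph1 had 163 and 260 CPM, Fos had 2675 and 2770 CPM, Dusp1 had 1697 and 1708 CPM, and Hspa1a had 1470 and 1902 CPM.

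The list of type I interferon responses had a median of -0.57 over 22 measured genes, with none past 1.5-fold higher and 11 lower, against 0.4% higher and 3.65% lower over all genes. The median was -0.21 at a pseudocount of 20 CPM, with 5 lower, and -0.19 over the 8 genes measured after thinning to 2000 UMIs, with 2 lower. Of the 22 genes, 5 stood above the level taken as free RNA in both libraries, of which 2 were lower, with a median of -0.39. In cDC2 the list's median was -0.16. The 11 lower genes were Isg15, Ifit2, Ifit1, Irf7, Oasl2, Rsad2, Usp18, Ifi27l2a, Cxcl10, Gbp2 and Cmpk2. The median cell had 887 CPM of the list in anti-Gr-1 and 889 CPM in isotype control, of which Ly6e makes up a large share. Without Ly6e it held 368 CPM in anti-Gr-1 and 391 CPM in isotype control, with lower quartiles of 206 and 244 CPM. The 5 highest cells then held 8.76% of the UMIs in the anti-Gr-1 and 24.5% in the isotype control library. Ifit1, an antiviral RNA-binding protein, had 1 UMI in anti-Gr-1 and 34 UMIs in isotype control, where they lay in 5 cells. Ifit2 had 10 UMIs in 5 anti-Gr-1 cells and 51 UMIs in 6 isotype control cells, and Rsad2, which encodes viperin, had 9 UMIs in 2 anti-Gr-1 cells and 49 UMIs in 6 isotype control cells. Isg15 had 19 UMIs in 14 anti-Gr-1 and 67 UMIs in 18 isotype control cells. Several of the more abundant members lay close, such as Ly6e with 505 CPM in anti-Gr-1 and 488 CPM in isotype control, Ifi203 with 140 and 141 CPM, and Bst2 with 69.9 and 64.2 CPM. The median of this list was -0.36 over 11 genes among female cells, with 3 lower, and -0.19 over 15 genes among male cells, with 4 lower.

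**Figure D3:**
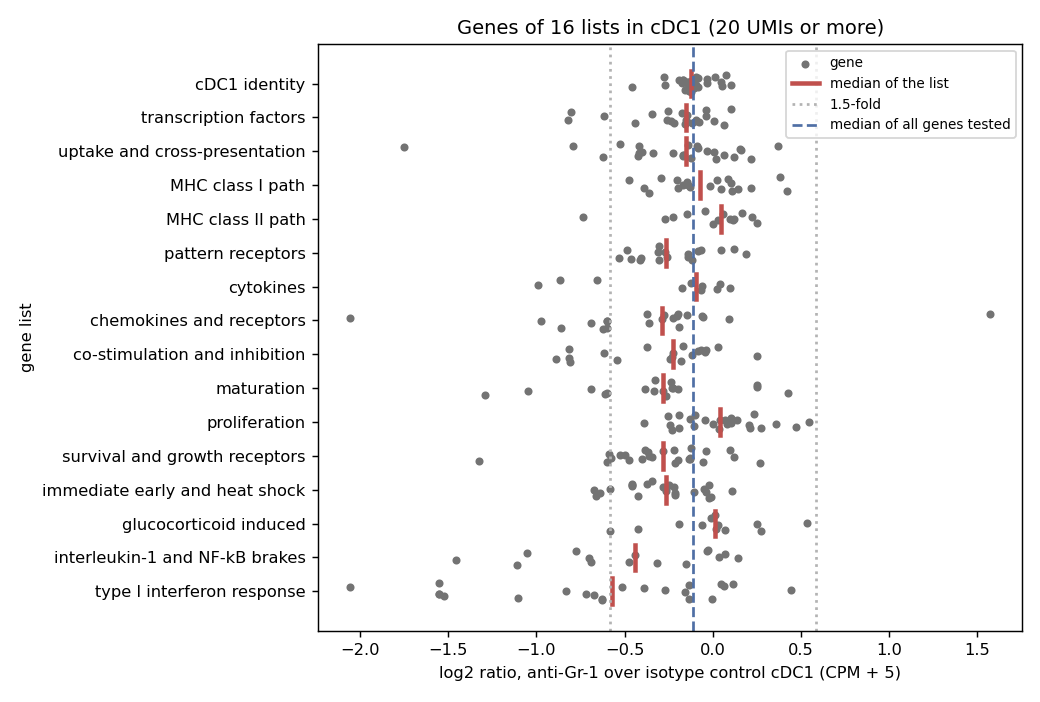
Log2 ratio of anti-Gr-1 over isotype control cDC1 (x axis, CPM + 5) for each gene with at least 20 UMIs (points) in 16 lists (rows), with the genes that chose the cells kept in the identity and MHC class II lists. Red bars are list medians, the dashed line is the median of all genes tested (-0.11) and dotted lines mark 1.5-fold. At this pseudocount the lowest of the 16 medians are those of the interferon list (-0.57) and the list of interleukin-1 and NF-κB brakes (-0.44), whereas the identity list (-0.12) lies at the median of all genes.

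**Figure D4:**
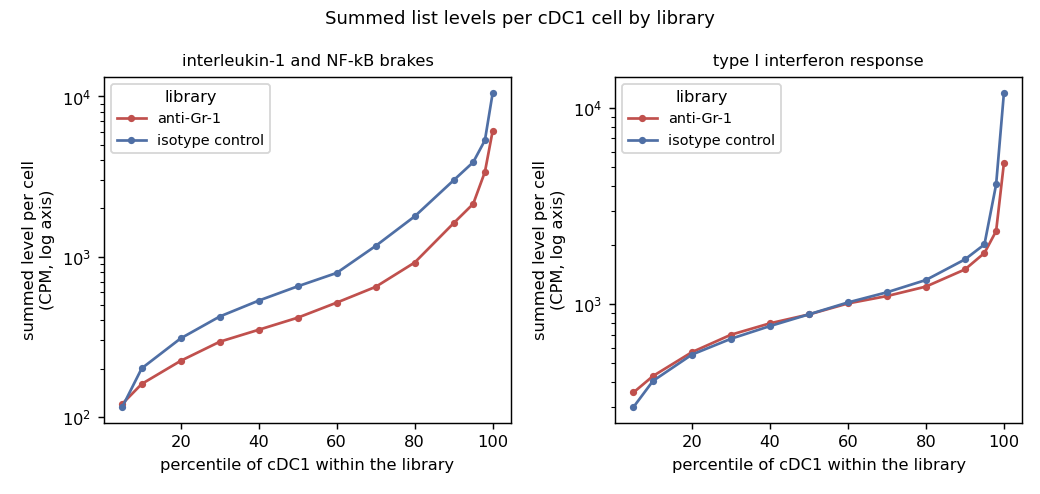
Summed level per cell (y axis, CPM, log axis) against the percentile of cells within a library (x axis) for 2 gene lists in anti-Gr-1 and isotype control cDC1. For the brakes on interleukin-1 and NF-κB the lines stand apart over most percentiles, with medians of 416 CPM in anti-Gr-1 and 654 CPM in isotype control. For the interferon list, much of which is Ly6e, they run close together, with medians of 887 and 889 CPM, and part at the highest cells, which reach 5246 CPM in anti-Gr-1 and 11962 CPM in isotype control.

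Genes induced by glucocorticoids had a median of 0.02 over 12 measured and none past the fold. Tsc22d3, which encodes GILZ, had 334 CPM in anti-Gr-1 and 330 CPM in isotype control cDC1, and Fkbp5 had 15.4 and 9.05 CPM. The 16 lists of cDC1 function had medians between -0.57 and 0.04, 13 of them below 0 and 11 below the median of all genes. Above the level taken as free RNA, 1 lower gene remained in each of the chemokine, co-stimulation and maturation lists. None remained among transcription factors, uptake, MHC class II, cytokine, survival or immediate early genes. For the lower genes under that level, the part of free RNA was not tested.

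After the mast cell genes, the lowest ratios among the genes ranked by the rule were those of Cebpb (-1.20), Socs3 (-1.06), Apoe (-0.97), Capg (-0.88) and Tnf (-0.86). Cebpb, a myeloid transcription factor, had 21.0 CPM in anti-Gr-1 and 54.6 CPM in isotype control cDC1, and 5 cells held 54.6% and 40.1% of its UMIs. Apoe, a macrophage apolipoprotein, had 69.9 CPM in anti-Gr-1 and 142 CPM in isotype control, and its log2 ratio in cDC2 was -1.33. Capg, an actin-capping protein, had 29.1 CPM in anti-Gr-1 and 57.8 CPM in isotype control, spread over 93 cells in each library. Among the genes ranked, the highest ratios after S100a8 and AY036118 were small. Sdhd, a subunit of mitochondrial complex II, had a log2 ratio of 0.46, the receptor gene Gpr171 0.43 and Mpp7 0.41. The ubiquitin gene Ubb had 0.40, Pa2g4 0.39 and the nucleotide pyrophosphatase Dctpp1 0.37, which was -0.35 thinned to 2000 UMIs. Gm42418, an unnamed gene model that the ranking left out, also had 0.46, at 58422 CPM in anti-Gr-1 and 42376 CPM in isotype control cDC1. Gpr171 had 132 CPM in anti-Gr-1 and 96.3 CPM in isotype control, and Ubb had 1456 and 1105 CPM. In cDC2 the log2 ratio of Ubb was 0.28 and that of Gpr171 was -0.08.

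cDC1 and cDC2 were set side by side in each library. Both classes were chosen by their own values, so this is a description without a test. By the smaller of the log2 ratios of the 2 libraries, the 15 highest genes were Irf8, Cd207, Ifi205, Gpr141b, Zmynd15, Dbn1, Ppt1, Dnase1l3, Cldn7, Itgae, Cxcr3, Pglyrp1, Cadm1, Nppc and Wdfy4. cDC2 were limited to under 2 UMIs of Epcam and Cd207, so the place of Cd207 follows from that rule. Ifi205, an interferon-inducible gene of the HIN-200 family, had 225 CPM in anti-Gr-1 and 217 CPM in isotype control cDC1, against 2.44 and 6.68 CPM in cDC2. Dnase1l3, a secreted DNase, had 268 CPM in anti-Gr-1 and 263 CPM in isotype control cDC1, against 15.1 and 19.0 CPM in cDC2. Cldn7, a tight-junction protein, had 51.0 and 53.4 CPM in cDC1 and 0 and 0.281 CPM in cDC2. Nppc, which encodes C-type natriuretic peptide, had 44.5 CPM in anti-Gr-1 and 56.9 CPM in isotype control cDC1, against 0.0978 and 0.352 CPM in cDC2. Pglyrp1, a peptidoglycan recognition protein, had 99.1 and 101 CPM in cDC1. Zmynd15 had 83.4 and 89.3 CPM in cDC1 but stood higher, at 416 CPM in anti-Gr-1 and 307 CPM in isotype control, in mature dendritic cells with Ccr7. Cd207 likewise stood higher in Langerhans cells, at 2455 CPM in anti-Gr-1 and 1995 CPM in isotype control. Those cells were chosen by 2 or more UMIs of Cd207, so their level of it is no result.

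The 10 lowest genes in cDC1 relative to cDC2 were Apod, Cd209e, Ear2, Cd209d, Mmp12, Wfdc17, Cd209a, Retnla, Fcrls and Ptgs2. Cd209a was among the genes by which cDC2 were chosen, so its place follows from that rule. Retnla, which encodes RELMα, had 12.9 CPM in anti-Gr-1 and 42.3 CPM in isotype control cDC1, against 875 and 857 CPM in cDC2. Mmp12, the macrophage elastase, had 5.65 CPM in anti-Gr-1 and 8.17 CPM in isotype control cDC1, against 342 and 282 CPM in cDC2. Ptgs2, which makes prostaglandin precursors, had 2.83 and 7.01 CPM in cDC1 and 133 CPM in anti-Gr-1 and 203 CPM in isotype control cDC2.

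Variation among cDC1 was measured as the Fano factor, the variance of UMIs per cell divided by the mean, after each cell was thinned to 2000 UMIs, which left 332 anti-Gr-1 and 283 isotype control cells. Over 1039 genes the median was 1.06. By the smaller value of the 2 libraries, the 12 highest genes were Malat1, Gm42418, Ccl4, Fos, Cst3, Tmsb4x, Jun, Hspa1a, Klf6, Crip1, Hspa1b and Dusp1. Ccl4 had a Fano factor of 7.55 in the anti-Gr-1 and 16.1 in the isotype control library, Fos 5.36 and 5.01, Jun 6.45 and 4.73, and Hspa1a 5.18 and 4.51. Il1b and Nfkbia came next, with 3.60 and 3.31 in anti-Gr-1 and 3.33 and 3.18 in isotype control. Irf8 had 1.38 in the anti-Gr-1 and 1.33 in the isotype control library, and Cd207 had 1.95 and 1.78.

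cDC1 with and without langerin transcripts were set side by side. The choice of Cd207 was made after its values were seen, so the values are a description. With cells thinned to 8000 UMIs, 229 of 313 anti-Gr-1 cDC1 (73.2%) and 182 of 246 isotype control cDC1 (74.0%) carried a Cd207 UMI. Of the cells with Cd207, 35 in the anti-Gr-1 and 25 in the isotype control library had a single UMI and so lay next to the limit. Cells with and without it were alike in depth before thinning, with medians of 17381 and 16583 UMIs in anti-Gr-1 and 12881 and 12845 UMIs in isotype control. Irf8 stood at 1697 CPM with and 1637 CPM without Cd207 in anti-Gr-1, and at 1927 and 1701 CPM in isotype control. Clec9a stood at 184 and 162 CPM in anti-Gr-1 and at 186 and 152 CPM in isotype control.

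Among genes higher with Cd207, Dnase1l3 stood at 331 CPM with and 68.5 CPM without Cd207 in anti-Gr-1, and at 323 and 85.9 CPM in isotype control. Epcam, an adhesion molecule also found on Langerhans cells, stood at 106 and 11.9 CPM in anti-Gr-1 and at 87.9 and 25.4 CPM in isotype control. The tight-junction genes Cldn1 and Cldn7, with Tcea3, Zmynd15, Mt3, Lyz1, Sult1a1, Dst, Bst1 and Csad, completed the 12 highest. Itgae stood at 168 CPM with and 72.9 CPM without Cd207 in anti-Gr-1, and at 218 and 115 CPM in isotype control. Xcr1 stood at 402 and 263 CPM in anti-Gr-1 and at 473 and 316 CPM in isotype control.

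Among genes lower with Cd207, Tlr3 stood at 34.9 CPM with and 92.3 CPM without Cd207 in anti-Gr-1, and at 33.0 and 84.0 CPM in isotype control. Ifitm2 stood at 50.2 and 211 CPM in anti-Gr-1 and at 34.3 and 164 CPM in isotype control. Ccl4 stood at 195 and 664 CPM in anti-Gr-1 and at 113 and 760 CPM in isotype control, although few cells carry most of it. Ccr2 stood at 200 and 293 CPM in anti-Gr-1 and at 199 and 471 CPM in isotype control. The formin-binding gene Fnbp1, the peptidase gene Dpp4, Nrp1, Cotl1, Rac2, Iqgap2, Jdp2, Ifitm3 and Ear2 were the others among the 12 lowest. Ear2, a cDC2 gene, had 8 UMIs with and 37 UMIs without Cd207 in anti-Gr-1 and 22 and 36 UMIs in isotype control, and the part of cDC2 RNA in this pattern was not tested.

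**Figure D5:**
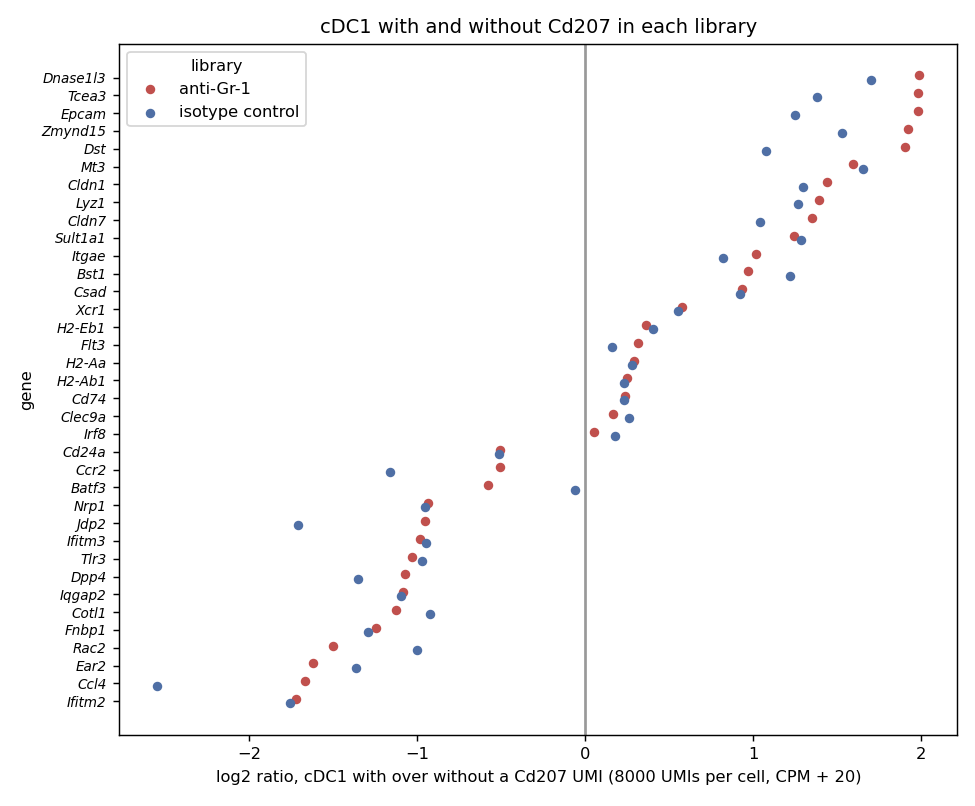
Log2 ratio of cDC1 with over without a Cd207 UMI (x axis, 8000 UMIs per cell, CPM + 20) for the 12 highest and 12 lowest genes and 12 named genes (rows, one point per library). The 12 highest and 12 lowest genes were picked by their values in both libraries, so that their points lie on 1 side of 0 follows from that choice. Epcam lies at 1.98 in the anti-Gr-1 and 1.25 in the isotype control library, and Tlr3 at -1.03 and -0.97.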

How the data were processed

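The deposited values are raw UMI counts per gene and barcode. The file headers name Cell Ranger 4.0.0 as the authors' software, and build mm10 is taken from the processing notes of the submitters. Groups came from the treatment labels. In Python 3.11.15 with scipy 1.17.1, pandas 2.3.3 and scanpy 1.11.5, UMIs were summed over the cDC1 of a library and given as CPM, and ratios used a pseudocount of 5 CPM. Shares have Clopper-Pearson intervals and ratios exact conditional intervals. Free RNA was taken, per gene and library, as the lowest level among T cells, mast cells, macrophages and cDC2, and a gene passed it at 3 times that level. Genes that all these classes express themselves, such as Ubb, also fail it. Failing it is therefore no measure of free RNA. Classes were set by rules on markers: cDC2 had no Xcr1 or Clec9a, 2 or more UMIs of Cd209a, Mgl2 and Clec10a, and under 2 UMIs of Epcam and Cd207. Langerhans cells had no Xcr1 or Clec9a, 2 or more UMIs of Cd207 and 2 or more UMIs of Epcam.

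Thinning drew UMIs at random with a fixed seed and dropped 2 anti-Gr-1 and 4 isotype control cDC1 at 2000 UMIs, and 21 and 41 at 8000 UMIs. The automatic doublet limit marked 489 anti-Gr-1 and 0 isotype control barcodes, so it had not worked in the isotype control library. In its place the 518 and 3055 barcodes with the highest scores were removed as an alternative. The calculations were tested on simulated data that held counting error only. Members, gene lists and rules were chosen with earlier results of these data known. The rule names the 10 highest and 10 lowest ratios of genes that reached 50 UMIs and, in 1 library, 50 CPM, list members past 1.5-fold, up to 6 abundant members per list, the genes that set cDC1 apart from cDC2 and the 12 highest Fano factors. The Cd207 split and members named outside that rule were chosen after their values were seen. Positions are from GENCODE M21 on mm10.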

Additional observations from a re-analysis of the deposited data

Results flagged for a closer look

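The 6 fibroblast markers (Col1a1, Col1a2, Col3a1, Dcn, Sparc and Lum) had opposite directions in the sexes. Their median log2 ratio of anti-Gr-1 over isotype control cDC1 was -0.93 among female and 0.70 among male cells, and this difference was not tested. The female median rests on 1 measured gene and the male median on 4. The list held 203 UMIs in 40 anti-Gr-1 cells and 72 UMIs in 39 isotype control cells. In the anti-Gr-1 library 116 of them lay in 1 cell.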

How the results depend on the processing

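The ratio of cDC1 shares lay above 1 in each of the 14 alternatives. It was 2.17 among male cells, 1.62 after thinning to 2000 UMIs, 3.45 for members without Cd209a, Mgl2 or C1q UMIs, 4.06 of MHC class II barcodes, 2.21 at 2000 or more UMIs and 2.2 with any number of Cd3 UMIs. At a pseudocount of 1 CPM 79 genes were higher and 545 lower, at 20 CPM 12 and 55, after centring on the median gene 48 and 156, and at 2-fold 13 and 49. Of 9748 genes at 20 UMIs 39 were higher and 356 lower, and of 15265 genes at 1 UMI 40 and 387. Among female cells 77 were higher and 293 lower, and among male cells 57 and 338. Without members that held Cd209a, Mgl2 or C1q the counts were 70 and 318, and thinned to 2000 UMIs 45 and 215. Subsets and thinning change the number of genes tested, so these counts cannot be set directly beside the main ones. With equal weight per cell 420 were lower. Without the barcodes of highest doublet scores the ratio of shares was 2.68, and 29 genes were higher and 243 lower. The mast cell list then had a median of -0.45, against -1.88 with them, and the macrophage list -0.996, against -0.48.

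Among values past 1.5-fold, the opposite sign was found for the neutrophil list with equal weight per cell (-0.81) and thinned to 2000 UMIs (-0.71), and for S100a8 among female (-0.74) and male cells (-0.64) and without cells with mast or neutrophil RNA (-0.48). Without members that held Cd209a, Mgl2 or C1q it was found for the mast cell list (0.056), Mcpt4 (0.056), Hdc (0.49), Tpsb2 (0.80) and Cebpb (0.53). The cause was not tested. A further 56 sign changes were of values inside 1.5-fold. They include, among female cells, the medians of chemokines and receptors (0.28) and pattern receptors (0.06) and Il1b (-0.65), and Batf3 among male cells (-0.14). The medians of the interferon and brake lists kept their direction in every alternative run, although the brakes past the fold numbered 1 with 3 or more Xcr1 and Clec9a UMIs. The identity median also stayed negative, but it lay at the median of all genes and was -0.02 after centring on the median gene. Its sign is therefore that of the shift of all genes. The alternatives on Cd3 UMIs, mast or neutrophil RNA, 8000 UMIs and lists without single genes were chosen after seeing the data. No paired analysis was possible because each condition is 1 library, and for the same reason no replicate could be left out. Depth limits genes of few UMIs, such as the interferon genes found in under 20 cells.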
